A study of Mus musculus with 4 samples.

Results

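The genes described here are 10 core genes of the Notch pathway, chosen by name as receptors, ligands and targets: Notch1, Notch2, Notch3, Notch4, Dll4, Jag1, Jag2, Hey1, Hes1 and Rbpj. All 10 were found by symbol among the 32285 genes of the deposited matrices, and a further 52 genes of the pathway were read beside them. The libraries held 1 pool of cells each. The tissue is described as the infarct core and about 2 mm of surrounding sensory cortex, and no separate site is given here for sham surgery. The mice were C57BL/6N males, 10 months of age. The pool labelled sham isotype came from mice with sham surgery and an isotype control antibody. The pool labelled stroke isotype came from mice with dMCAO stroke surgery, in which a cortical branch of the middle cerebral artery is closed, and the same control antibody. The pools labelled stroke anti-VCAM1 and stroke anti-VLA4 had the same stroke surgery, with an antibody to block VCAM1, which inflamed vessels display to leukocytes, or VLA4, its integrin partner on leukocytes. All mice received antibody for 10 weeks, and each pool held 4 to 5 mice. The cells had been stained for CD31, carried by endothelium, and CD45, carried by leukocytes, with dead cells excluded and the dissociation adjusted for endothelial and immune cells, and no label tells which fractions of the stain were taken. By its title, the study concerns how blocking VCAM1 or VLA4 acts on brain vessels late after stroke.

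Notch receptors are cell surface proteins that are cut when a ligand of the Delta or Jagged family on a neighbouring cell binds them. The freed intracellular part enters the nucleus and joins the DNA-binding protein RBPJ to switch on targets of the Hes and Hey families. In blood vessels the pathway is known for setting arterial against venous identity, for restraining sprouting through Dll4 and Notch1, and, through Notch3, for the upkeep of mural cells (pericytes and smooth muscle).

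Kept cells numbered 1516 in sham isotype, 2832 in stroke isotype, 4662 in stroke anti-VCAM1 and 6209 in stroke anti-VLA4, with 9892316 to 33386331 UMIs (unique molecular identifiers, 1 per captured transcript) per library. The 10 genes took 6447, 9743, 18863 and 26503 of these UMIs. Every group was 1 library, so none of the differences was checked in replicates, no p-value is possible, and all intervals are 95% intervals that cover counting error only. Levels are CPM, the UMIs of a gene scaled to the UMI total of its class and library. Ratios are log2 of CPM with 1 CPM added, and their intervals were computed without that addition. Unless named otherwise, 4 values in a row follow the order sham isotype, stroke isotype, stroke anti-VCAM1, stroke anti-VLA4.

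Cell classes were named from marker genes after clustering that left the pathway genes out. Capillary-like endothelial cells numbered 433, 507, 1896 and 2389, arterial-like cells 68, 86, 394 and 541, and venous-like cells 47, 44, 69 and 95. Microglia-like cells numbered 690, 1476, 1816 and 2460, border-macrophage-like cells 115, 192, 60 and 91, and T-cell-like cells 57, 234, 103 and 199. Pericyte-like cells numbered 10, 14, 57 and 97, so the mural levels of the first 2 libraries rest on very few cells. No cluster of smooth-muscle-like cells was found. A cluster with both pericyte and endothelial markers (2, 10, 126 and 193 cells) was left unnamed. The pericyte-like class checked against its markers held 27546, 22676, 16537 and 17806 CPM of the pericyte list, and 1523, 6581, 8665 and 9184 CPM of the endothelial list. It also held 2985, 1921, 3922 and 1302 CPM of the smooth muscle list, so its levels may not be those of pericytes alone.

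Before any result, it has to be said that sham isotype and stroke isotype shared 59 cell barcodes, 3.83% of the smaller library, against 1 to 8 for the other pairs of libraries. The shared barcodes had a median of 17753 UMIs in sham isotype and 606 in stroke isotype, and 54 of them were at least 5 times deeper in sham isotype. Of the 53 kept in both libraries, 43 fell into the same class, and they held 802 member UMIs in sham isotype and 48 in stroke isotype. Each ratio between libraries was therefore also computed without shared barcodes. The stroke ratio of Hes1 in capillary-like cells was 0.41 with them and 0.42 without, and that of Rbpj in microglia-like cells 0.35 and 0.40.

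The promoter sequences of 4 members are shown as examples of members, among those with a matched window, whose levels set cell classes apart below: Dll4 and Jag2 in endothelial classes, Notch3 in pericyte-like cells and Rbpj in border-macrophage-like cells. They are RefSeq sequences of build GRCm38.p6, 250 bases upstream of an annotated start, printed 5′ to 3′ on the strand of the gene. Capitals mark TGGGAA or its reverse complement TTCCCA, the core bases that RBPJ is known to bind.
Dll4, chr2:119325534-119325783, plus strand: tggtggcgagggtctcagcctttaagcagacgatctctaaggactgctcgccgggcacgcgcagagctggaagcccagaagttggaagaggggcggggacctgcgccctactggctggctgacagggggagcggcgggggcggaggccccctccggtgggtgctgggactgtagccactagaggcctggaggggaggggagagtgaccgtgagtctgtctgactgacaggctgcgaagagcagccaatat
Jag2, chr12:112929496-112929745, minus strand: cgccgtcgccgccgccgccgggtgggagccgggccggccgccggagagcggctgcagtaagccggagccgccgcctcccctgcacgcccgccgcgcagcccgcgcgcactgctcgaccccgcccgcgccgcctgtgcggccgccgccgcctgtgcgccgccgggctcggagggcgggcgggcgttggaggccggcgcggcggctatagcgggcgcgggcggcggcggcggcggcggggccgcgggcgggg
Notch3, chr17:32166891-32167140, minus strand: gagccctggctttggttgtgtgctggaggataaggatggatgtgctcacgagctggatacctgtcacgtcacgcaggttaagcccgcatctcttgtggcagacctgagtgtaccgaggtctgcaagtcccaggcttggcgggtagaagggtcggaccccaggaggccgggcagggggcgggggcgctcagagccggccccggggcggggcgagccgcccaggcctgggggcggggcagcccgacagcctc
Rbpj, chr5:53590096-53590345, plus strand: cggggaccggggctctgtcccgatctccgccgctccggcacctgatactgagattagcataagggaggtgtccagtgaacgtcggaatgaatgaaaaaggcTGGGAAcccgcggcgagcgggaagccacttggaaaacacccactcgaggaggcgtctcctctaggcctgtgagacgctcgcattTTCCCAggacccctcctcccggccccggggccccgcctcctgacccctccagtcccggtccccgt

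Promoter windows were matched by symbol for 8 of the 10 members, all but Hey1 and Hes1. Of these members' 9 windows, 2 held the 6 bases on either strand, both of them windows of Rbpj. The printed Rbpj window held 2 matches, starting 149 and 65 bases before the start. The other Rbpj window overlaps with it, and its match is the same site as the one at 65 bases. Rbpj was thus the only member with a match. Of all 32851 windows of that length, 7094 (21.6%) held the 6 bases. The count among member windows, with that site in both Rbpj windows, is near this background. A match is a description of the letters, and the windows of Dll4, Jag2 and Notch3 say only that these letters are not in those bases.

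Notch1, the main endothelial receptor (ENSMUSG00000026923, chromosome 2, 26457903 to 26516663, GRCm38), was measured in every endothelial class. In arterial-like cells it stood at 224, 294, 272 and 256 CPM, in capillary-like cells at 285, 239, 202 and 208 CPM, and in venous-like cells at 180, 164, 105 and 153 CPM. The venous-like levels lay below both other ranges in all 4 libraries, while the arterial-like and capillary-like ranges overlapped. Pericyte-like cells had 278 and 286 CPM in the 2 blockade libraries, and microglia-like cells 29.2 to 35.4 CPM. The pericyte-like class also held 8665 and 9184 CPM of the endothelial marker list there, whose part in its Notch1 level was not tested.

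Notch4, an endothelial receptor (chromosome 17, 34564268 to 34588503), stood at 136, 96.4, 80.1 and 84.6 CPM in arterial-like cells and at 97.7, 68.2, 60.2 and 58.8 CPM in capillary-like cells. In venous-like cells it was at 27.0, 42.4, 60.2 and 48.1 CPM. The highest level of the arterial-like and capillary-like classes was in sham isotype. The capillary-like range overlapped with both others, while the arterial-like range lay above the venous-like one. In microglia-like cells it was at 4.52 to 9.41 CPM.

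Notch2 (chromosome 3, 98013527 to 98150361) was the receptor of the myeloid classes. It stood at 157, 156, 165 and 162 CPM in microglia-like cells and at 131, 149, 161 and 163 CPM in border-macrophage-like cells, with overlapping ranges. These ranges did not overlap with the next class, B-cell-like cells at 68.9 to 119 CPM in the 3 stroke libraries (sham isotype held 15 such cells, under the 20 asked for). The B-cell-like class held 2234, 3376 and 468 CPM of the microglia marker list there, whose part in its Notch2 level was not tested. Capillary-like cells had 28.5, 18.6, 16.4 and 12.9 CPM and arterial-like cells 20.2, 21.0, 14.3 and 13.8 CPM. After thinning each cell to 1000 randomly drawn UMIs, with shallower cells left out, a Notch2 UMI was seen in 14.6% to 16.6% of microglia-like cells, against 51.3% to 60.1% with all UMIs.

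Notch3, the mural receptor (chromosome 17, 32120820 to 32166852), was measured mainly in pericyte-like cells. Its levels there were 808 CPM (interval 528 to 1184, 26 UMIs of 10 cells), 493 CPM (349 to 677, 38 UMIs of 14 cells), 365 CPM (311 to 427) and 327 CPM (287 to 371). The 2 isotype libraries were highest and the 2 blockade libraries lowest. The endothelial marker sum in the same class ran the other way, from 1523 CPM in sham isotype to 9184 CPM in stroke anti-VLA4, and its part in the order was not tested. The smooth muscle marker sum was 2985, 1921, 3922 and 1302 CPM, and its part in the Notch3 levels was not tested either. The unnamed cluster with pericyte and endothelial markers held 34.0, 43.6 and 33.9 CPM of Notch3 in the 3 stroke libraries.

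In the endothelial classes Notch3 was near 0. Arterial-like cells had 0 UMIs in sham isotype and in stroke isotype, where 3 UMIs would be 7.56 and 6.29 CPM, and 5 and 7 UMIs in the blockade libraries. Capillary-like cells had 0, 2, 9 and 18 UMIs, or at most 1.54 CPM, and microglia-like cells 0, 1, 1 and 0. After thinning, a Notch3 UMI was seen in 42.1% (interval 29.1 to 55.9) and 36.5% (26.9 to 46.9) of pericyte-like cells in the blockade libraries, against 86.0% and 74.2% with all UMIs. The Notch3 shares in T-cell-like cells were 0 of 56, 0 of 228, 0 of 99 and 0 of 193, which allow shares of up to 5.36%, 1.32%, 3.03% and 1.55% for cells with a UMI at that depth, not for cells that express the gene.

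Dll4, the Delta ligand of arteries and of sprouting tips (chromosome 2, 119325784 to 119335962), stood at 70.5, 65.0, 99.1 and 102 CPM in arterial-like cells. It was at 72.8, 54.3, 59.4 and 71.0 CPM in capillary-like cells. In venous-like cells it was at 13.5, 10.6, 5.02 and 29.2 CPM, from 3, 2, 2 and 20 UMIs. The venous-like range lay below both others, and the 2 blockade libraries held the highest arterial-like levels. Microglia-like cells had 0, 1, 3 and 4 Dll4 UMIs.

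Jag2, a Jagged ligand (chromosome 12, 112907819 to 112929776), held 3 separate ranges. It stood at 272, 235, 217 and 212 CPM in arterial-like cells and at 190, 153, 134 and 125 CPM in capillary-like cells. In venous-like cells it was at 108, 90.0, 80.3 and 77.3 CPM. No arterial-like level overlapped with a capillary-like one, nor a capillary-like with a venous-like one, and the level was highest in sham isotype in all 3 classes. Microglia-like cells had 3.88 to 4.66 CPM.

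Jag1, the other Jagged ligand (chromosome 2, 137081456 to 137116644), stood at 118, 73.4, 63.4 and 70.2 CPM in arterial-like cells and at 57.5, 44.8, 41.8 and 37.1 CPM in capillary-like cells. In venous-like cells it was at 63.0, 84.7, 50.2 and 35 CPM. The venous-like range overlapped with both others, unlike that of Jag2. Border-macrophage-like cells had 17.9 to 26.6 CPM of Jag1, against 0.196 to 0.861 CPM in microglia-like cells, and these ranges did not overlap.

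Hey1, a target gene of arterial endothelium (chromosome 3, 8663359 to 8667256), had the sharpest order among the endothelial classes. It stood at 144, 166, 186 and 204 CPM in arterial-like cells and at 57.0, 47.7, 61.9 and 79.3 CPM in capillary-like cells. In venous-like cells it was at 4.50, 5.30, 2.51 and 4.37 CPM, from 1, 1, 1 and 3 UMIs. The 3 ranges did not overlap, and pericyte-like cells, at 20.7 and 42.2 CPM in the blockade libraries, lay between the last 2. In those libraries the pericyte-like class held 8665 and 9184 CPM of the endothelial marker list, against 18573 and 18551 CPM in endothelial-like cells. The part of these endothelial transcripts in its Hey1 level was not tested. After thinning, a Hey1 UMI was seen in 11.8% to 17.5% of arterial-like cells and in 2.96% to 7.04% of capillary-like cells, against 50% to 58.4% and 14.8% to 23.2% with all UMIs. In thinned microglia-like cells it was seen in 0 of 687, 0 of 1440, 0 of 1791 and 2 of 2423 cells, which for the 3 counts of 0 allow shares of up to 0.437%, 0.208% and 0.168% for cells with a UMI at that depth, not for cells that express the gene. With all UMIs, a Hey1 UMI was seen in 0, 2, 4 and 6 microglia-like cells.

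Hes1, the target gene with the widest reach (chromosome 16, 30064384 to 30067796), ran the other way between the endothelial classes. It stood at 251, 335, 385 and 401 CPM in capillary-like cells and at 166, 260, 307 and 289 CPM in arterial-like cells. In venous-like cells it was at 157, 254, 294 and 280 CPM. Sham isotype was the lowest library in all 3 classes, and within each library the capillary-like level was the highest of the 3. Microglia-like cells had 39.6, 38.0, 58.6 and 50 CPM, with both blockade libraries above both isotype libraries.

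Rbpj, the DNA-binding partner of the receptors (chromosome 5, 53466152 to 53657362), was highest in border-macrophage-like cells, at 850, 867, 815 and 993 CPM. T-cell-like cells had 202, 179, 137 and 203 CPM and microglia-like cells 133, 170, 145 and 154 CPM. The border-macrophage-like range did not overlap with that of any other class, and the ranges of T-cell-like and microglia-like cells overlapped. The T-cell-like class held 2732, 744, 1620 and 317 CPM of the microglia marker list, whose part in its Rbpj level was not tested. Capillary-like, arterial-like and venous-like cells had 66.4 to 73.4, 48.2 to 73.2 and 47.7 to 101 CPM, which overlapped. The annotation also lists pseudogenes of Rbpj that were not among the counted features, so the Rbpj levels are uncertain where reads could be shared.

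**Figure D1:**
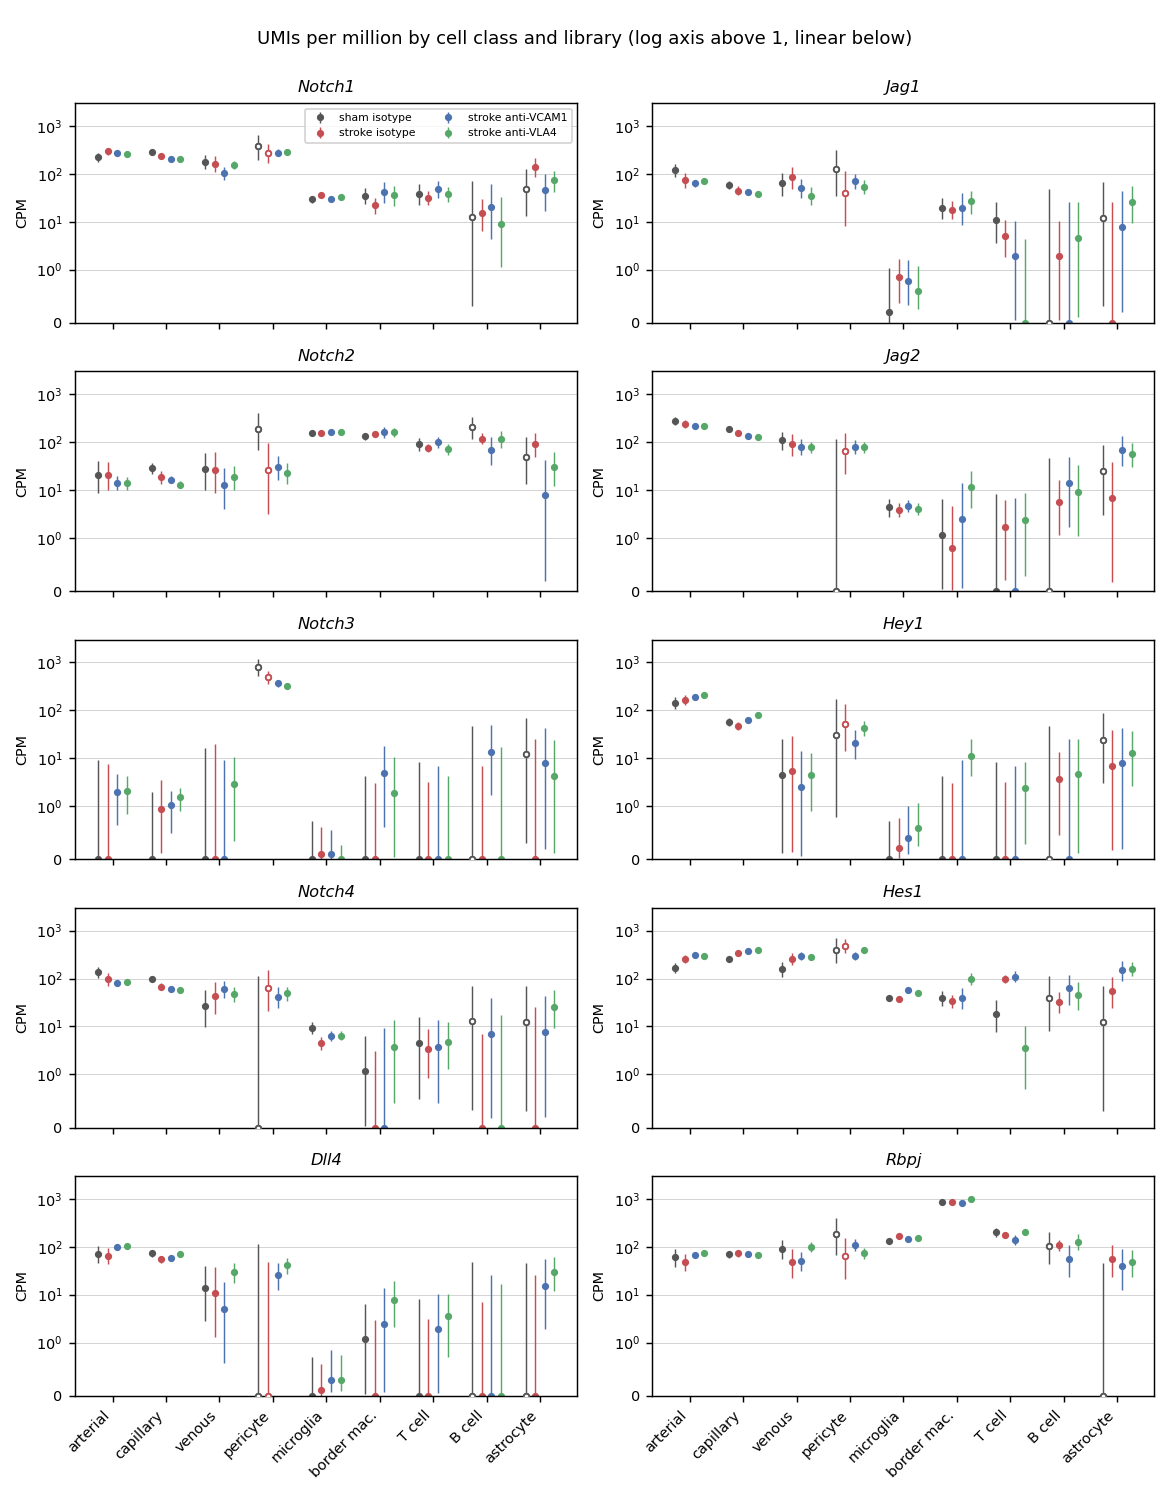
Levels (CPM, log axis above 1 and linear below) of the 10 genes in 9 cell classes, with 1 point per library and 95% exact Poisson intervals that cover counting error; open points are classes with under 20 cells. Notch3 stands at 327 to 808 CPM in pericyte-like cells and at most 2.92 CPM in the endothelial classes, and Rbpj at 815 to 993 CPM in border-macrophage-like cells.

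The classes themselves were not uniform. The MHC class II cluster of the border-macrophage-like class (274 cells, led by H2-Eb1 and Cxcl2) held 456 CPM of Rbpj over the 4 libraries together, and the cluster led by F13a1, Mrc1 and Pf4 (184 cells) held 1748 CPM. The same clusters differed less in Notch2, at 127 and 191 CPM. Among 8 microglia-like clusters, Rbpj ran from 94.8 CPM to 233 CPM. Against all other cells, the cluster with the highest level was led by Fabp5, Cst7 and Apoe, and that with the lowest by Cst3, Crybb1 and Tyrobp. Against the other classes, Trem2 and C1qa were among the leading genes of both. The cluster with the highest Rbpj level held 6, 92, 121 and 174 cells of the 4 libraries. It had the lowest Hes1 level of the class, 21.4 CPM, against up to 56.9 CPM in others.

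Among 8 capillary-like subclusters, Hes1 ran from 244 to 460 CPM, Jag2 from 76.6 to 193 CPM, Notch1 from 153 to 281 CPM and Hey1 from 33.4 to 94.7 CPM. The lowest Jag2 and Notch1 levels were in a shallow subcluster of 242 cells, with a median of 1025 UMIs and led by Gm19951 and AY036118. The subcluster with the highest Hes1 level was led by Car4 and Ctla2a, had 34.4 UMIs per 10000 from Malat1, an abundant nuclear RNA, and held 6, 29, 366 and 509 cells. The subcluster with the lowest Hes1 level and the highest Jag2 and Notch1 levels was led by Adgrl3 and Hmcn1, had 342 UMIs per 10000 from Malat1, and held 157, 133, 205 and 187 cells. The subcluster with the highest Hes1 level was the largest of the capillary-like class in both blockade libraries, and that with the lowest in both isotype libraries. In the arterial-like class the largest subcluster was led by Vegfc and Gkn3 in the isotype libraries (44 and 57 cells) and by Gkn3 with lower Malat1 in the blockade libraries (213 and 291 cells). Jag1 ran from 46.4 CPM in the latter to 387 CPM in a subcluster of 20 arterial-like cells.

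**Figure D2:**
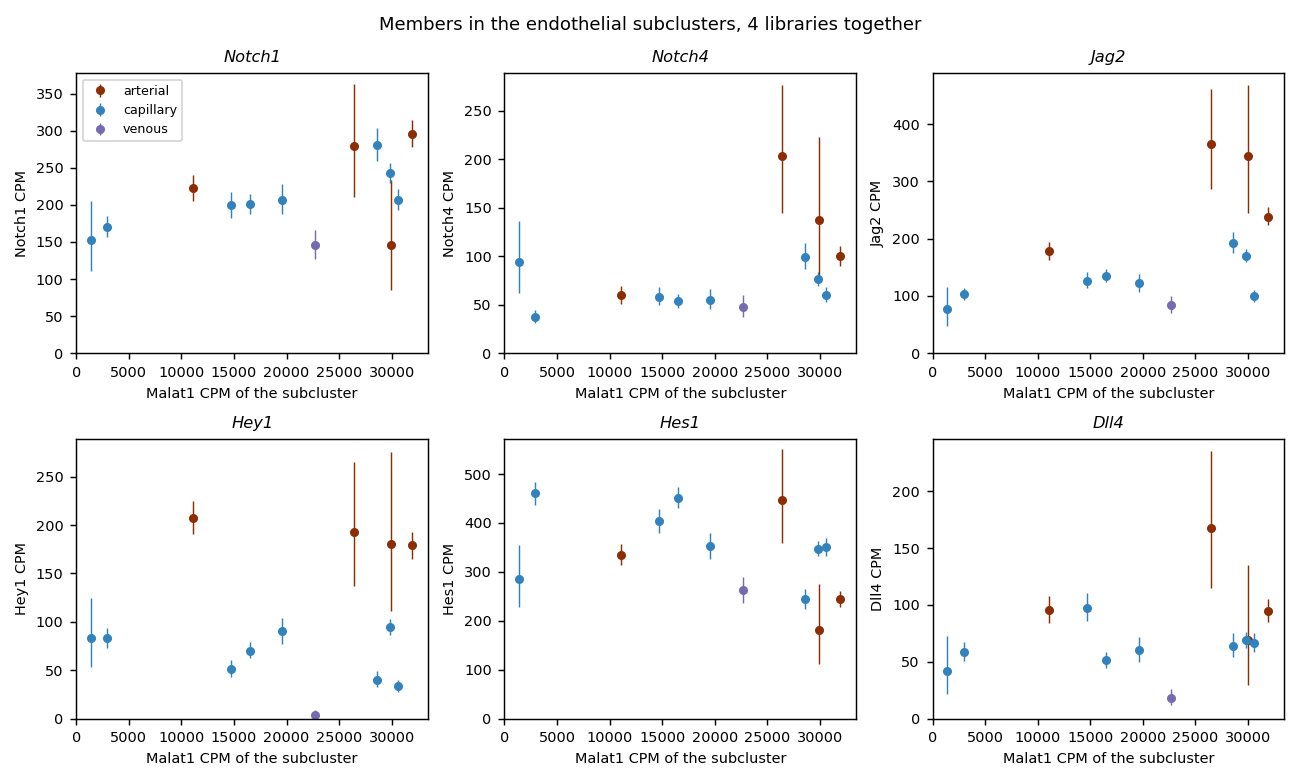
Levels (CPM) of 6 members in 13 endothelial subclusters, the 4 libraries summed, against the Malat1 level of the subcluster, with 95% exact Poisson intervals. The arterial-like subclusters stand above the capillary-like ones for Hey1, and Hes1 is 460 CPM in a capillary-like subcluster of low Malat1 and 244 CPM in another of high Malat1.

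Within each library, the members were then set against each other across endothelial subtypes. A gene was called when it differed at least 2-fold in the same direction in all 4 libraries, and 9 of the 10 members, all but Notch3, had the 80 UMIs needed. Subtypes came from clustering of the same cells, without these genes, so the values are descriptions. Of the 9, Hey1 was called higher in arterial-like than in capillary-like cells, where 1.43% of 10841 genes were called higher. Its log2 ratios were 1.32, 1.78, 1.58 and 1.35, with no interval reaching below 0.84. Of the members, 4 were higher in 4 of 4 libraries by any amount (Notch4, Jag1, Jag2 and Hey1) and 1 lower (Hes1), where 15.4% and 15.6% of genes were. None was called lower, where 0.553% were.

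Between arterial-like and venous-like cells, Dll4, Jag2 and Hey1 were called higher, 3 of 9 where 2.05% of genes were. The log2 ratios of Jag2 were 1.33, 1.37, 1.42 and 1.44. Those of Dll4 were 2.30, 2.51, 4.06 and 1.77, with intervals as wide as 0.64 to 5.73 because the venous-like cells held 2 or 3 Dll4 UMIs in 3 of the libraries. Those of Hey1 were 4.72, 4.73, 5.74 and 5.25 against 1 to 3 venous-like UMIs, with the lowest interval bound at 2.45. Notch1 was higher in arterial-like cells in 4 of 4 libraries, at 0.32, 0.83, 1.36 and 0.74, but past 2-fold in 1. By any amount, 6 members were higher in 4 of 4 libraries (Notch1, Notch4, Dll4, Jag2, Hey1 and Hes1) where 17.2% of genes were, and 0 lower where 15% were.

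Between capillary-like and venous-like cells, Dll4 and Hey1 were called higher, 2 of 9 where 0.815% of genes were, and 0 lower where 0.91% were. By any amount 5 were higher in 4 of 4 libraries (Notch1, Dll4, Jag2, Hey1 and Hes1) where 14% of genes were, and 0 lower where 11.9% were. The log2 ratios of Dll4 were 2.35, 2.26, 3.33 and 1.26 and those of Hey1 3.40, 2.95, 4.16 and 3.90. Jag2 was higher in 4 of 4 libraries at 0.69 to 0.81 and Notch1 in 4 of 4 at 0.44 to 0.93. Hes1 was higher in capillary-like than in venous-like cells in 4 of 4 libraries, at 0.39 to 0.67, and lower in arterial-like than in capillary-like cells in 4 of 4, at -0.59, -0.36, -0.32 and -0.47. The level of Hes1 in arterial-like and venous-like cells was nearly the same, with ratios of 0.03 to 0.08 and intervals from -0.53 to 0.71. The order of arterial-like and capillary-like cells turned with the library for Notch1, Notch2, Dll4 and Rbpj. Notch1 was lower in arterial-like than in capillary-like cells in sham isotype, at -0.35 (-0.69 to -0.02), and higher in the 3 stroke libraries, at 0.30 to 0.43. The arterial-like level of sham isotype rests on 68 cells and 89 Notch1 UMIs, and the turn was not tested. Dll4 stood at -0.05 (-0.69 to 0.55) in sham isotype and at 0.73 (0.51 to 0.96) in stroke anti-VCAM1.

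**Figure D3:**
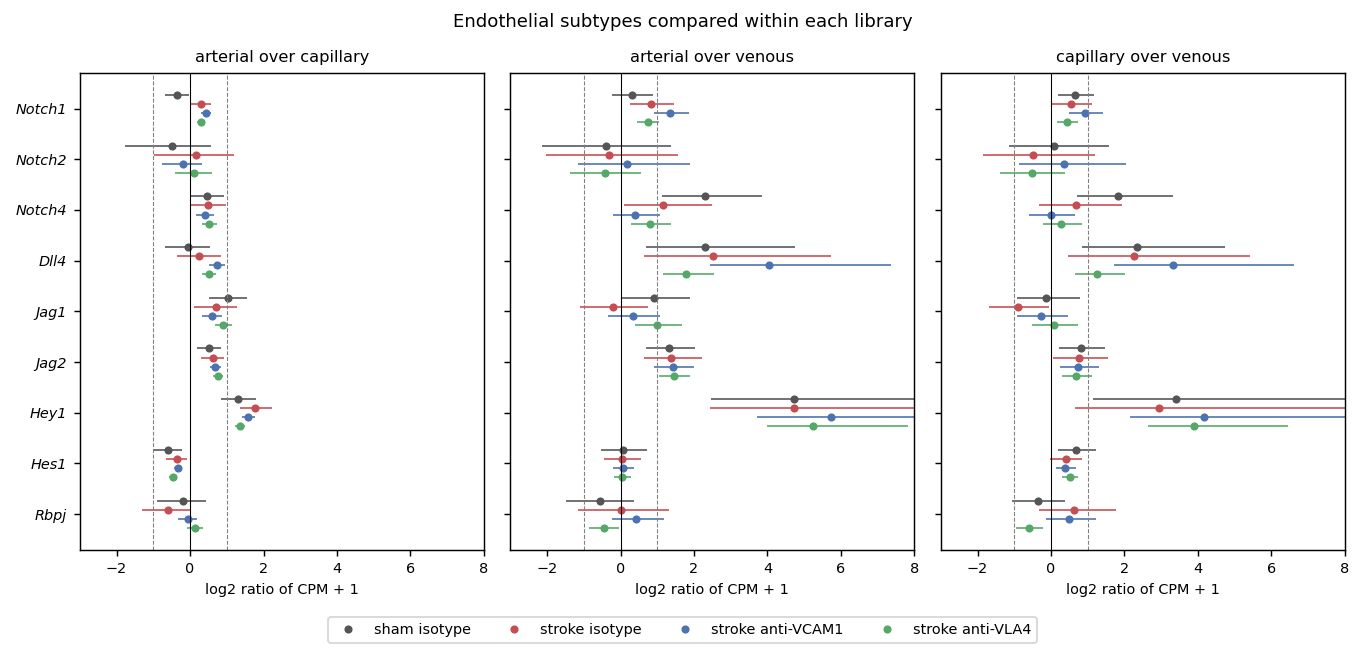
Log2 ratios of CPM + 1 between endothelial subtypes in each of the 4 libraries, with 95% conditional binomial intervals and dashed lines at 2-fold; intervals past the axis are clipped. Hey1 lies right of the 2-fold line in every library and pair, and Hes1 lies left of 0 in every library for arterial over capillary.

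The stroke comparison set stroke isotype over sham isotype, and a gene was called past 1.5-fold in either direction with at least 20 UMIs over the 2 libraries. In capillary-like cells 7 of 9 members were lower and 2 higher, with a median log2 ratio of -0.31 against -0.03 over 9954 genes. The median over all genes was thus below 0 too, and the share of all genes below 0 was not counted. Of 38 other pathway genes, 8 were above 0. Of the 9 members, 1 was past 1.5-fold, where 10% of all genes were, so the count is at the background. That member, Notch2, stood at 28.5 and 18.6 CPM (54 and 39 UMIs), a ratio of -0.59 with an interval of -1.25 to 0.00.

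Notch4 stood at 97.7 CPM in sham isotype and 68.2 CPM in stroke isotype, a log2 ratio of -0.51 (-0.84 to -0.20). Dll4 was at 72.8 and 54.3 CPM (-0.42, -0.79 to -0.05), and Jag2 at 190 and 153 CPM (-0.31, -0.53 to -0.09). Notch1 was at 285 and 239 CPM (-0.25, -0.43 to -0.08). These intervals exclude 0 for counting error, and all 4 genes were lower in stroke isotype. In the 6 capillary-like subclusters large enough to compare, which share the libraries and are no replicates, Notch4 and Jag2 were lower in 6 of 6, Notch1 in 5 and Dll4 in 4. The target Hes1 stood apart from these, at 251 and 335 CPM, a ratio of 0.41 (0.25 to 0.59), and was higher in 6 of 6 subclusters. With the trend with gene span removed it was 0.28. Hey1, at 57.0 and 47.7 CPM, had a ratio of -0.25 (-0.67 to 0.15).

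In arterial-like cells 2 of 8 members passed 1.5-fold, where 20% of all genes did. Jag1 was at 118 and 73.4 CPM, a ratio of -0.68 (-1.36 to -0.03), which was -0.44 and -0.51 at the other clustering resolutions and -0.10 with thinned cells, each under 1.5-fold. Hes1 was at 166 and 260 CPM, a ratio of 0.64 (0.20 to 1.10), and at the other clustering resolutions the ratio was 0.19 and 0.21. Notch1 had the opposite sign from capillary-like cells, at 224 and 294 CPM and 0.39 (-0.005 to 0.79), and that difference was not tested. In venous-like cells 2 of 5 members passed 1.5-fold, where 25.3% of all genes did. Hes1 was at 157 and 254 CPM (0.69, 0.03 to 1.36) and Rbpj at 90.0 and 47.7 CPM (-0.90, -2.24 to 0.28, from 20 and 9 UMIs). Without low-Malat1 cells these ratios were 0.44, under 1.5-fold, and -2.35. Hes1 was thus higher in stroke isotype in all 3 endothelial classes.

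The blockade comparisons set each blockade library over stroke isotype. They share that library, so any value particular to it moves both, and the values of the 2 are given side by side without an overlap. In capillary-like cells 0 of 9 members passed 1.5-fold with anti-VCAM1, where 11.2% of all genes did, and 1 of 10 with anti-VLA4, where 12.8% did. That member was Hey1, at 47.7, 61.9 and 79.3 CPM in stroke isotype, stroke anti-VCAM1 and stroke anti-VLA4. Its log2 ratios were 0.37 (0.07 to 0.70) and 0.72 (0.44 to 1.05). The anti-VLA4 level was also above the 57.0 CPM of sham isotype.

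Hey1 was higher with anti-VLA4 in 7 of 8 capillary-like subclusters and with anti-VCAM1 in 6 of 8. The share of capillary-like cells with a Hey1 UMI after thinning was 5.26% (3.33 to 7.86), 2.96% (1.63 to 4.92), 5.49% (4.49 to 6.64) and 7.04% (6.03 to 8.16), and with all UMIs it was 15.9%, 14.8%, 17.5% and 23.2%. Only the interval of stroke isotype lies apart from that of stroke anti-VLA4. Cells of low Malat1 made up 14.5%, 18.9%, 29.5% and 30.8% of the class, and without them the anti-VLA4 ratio of Hey1 was 0.52. With the trend with gene span removed it was 0.57, and at clustering resolution 0.5 it was 0.55, each under the 1.5-fold line. Whether other differences in makeup between the subclusters take part in it was not tested.

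Dll4 stood at 54.3, 59.4 and 71.0 CPM in capillary-like cells of these libraries, ratios of 0.13 (-0.17 to 0.43) and 0.38 (0.10 to 0.68). Hes1 stood at 335, 385 and 401 CPM, ratios of 0.20 (0.08 to 0.32) and 0.26 (0.14 to 0.37). Removing the span trend took these Hes1 ratios to 0.02 and 0.10, and within subclusters Hes1 was higher in 5 of 8 with anti-VCAM1 and in 4 of 8 with anti-VLA4. Hes1 has the shortest span of the 10 genes, 3.41 kb, and across genes the log2 ratio of capillary-like cells and log10 of the span had a Pearson r of -0.37 and -0.38 in the blockades and -0.23 in stroke. Genes are not replicates, and the part of this trend in the ratios was not tested beyond its removal.

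Notch1, Notch2, Notch4, Jag1, Jag2 and Rbpj had ratios below 0 in capillary-like cells with both blockades. The medians over all genes were also below 0, at -0.05 and -0.07, and the share of all genes below 0 was not counted. Notch1, at 239, 202 and 208 CPM in stroke isotype, anti-VCAM1 and anti-VLA4, had ratios of -0.24 (-0.39 to -0.10) and -0.20 (-0.34 to -0.06). With the span trend removed these were -0.07 and -0.01. Jag2, at 153, 134 and 125 CPM, had -0.18 (-0.36 to 0.00) and -0.29 (-0.46 to -0.11), and -0.17 and -0.27 without the trend. Notch2, Notch4, Jag1 and Rbpj had intervals that hold 0, and Notch2 with anti-VCAM1 went from -0.17 to 0.13 without the span trend. Rbpj went from -0.05 and -0.14 to 0.30 and 0.26 without it. Within subclusters Notch1 was lower in 6 of 8 and 7 of 8, while Notch4 and Jag2 were lower in 4 of 8 in both. Rbpj stood nearer to its sham isotype level in both blockade libraries than in stroke isotype, and none of the other members with ratios below 0 did in either. Its levels were 69.7, 73.4, 70.8 and 66.4 CPM, and its stroke ratio was 0.07 (-0.27 to 0.42). The stroke interval and both blockade intervals of Rbpj hold 0, so this order cannot be told from counting error.

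In arterial-like cells, Dll4 stood at 65.0, 99.1 and 102 CPM in stroke isotype and the blockade libraries. The log2 ratios were 0.60 (0.07 to 1.2) and 0.64 (0.12 to 1.23), from 31 Dll4 UMIs in stroke isotype. With each cell thinned to 1000 UMIs they were -0.08 and 0.36, so the anti-VCAM1 ratio changed sign. Thinned ratios rest on fewer UMIs still and were given no interval, so the change of sign cannot be told from counting error. Dll4 was the 1 member of 9 past 1.5-fold with anti-VCAM1, where 23.1% of all genes were. With anti-VLA4, 2 of 9 were, where 23.6% of all genes were. The other was Rbpj, at 48.2 and 73.2 CPM, with a ratio of 0.59 (-0.02 to 1.29) that became -0.11 with thinned cells. Hey1 stood at 166, 186 and 204 CPM, with ratios of 0.17 (-0.18 to 0.53) and 0.30 (-0.04 to 0.66). Cells of low Malat1 made up 13.2%, 15.1%, 27.2% and 29.8% of arterial-like cells.

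Venous-like cells gave 2 of 6 members past 1.5-fold with anti-VCAM1, where 32.1% of all genes were, and 3 of 7 with anti-VLA4, where 33.3% were. Jag1 stood at 84.7, 50.2 and 35 CPM in stroke isotype and the blockade libraries, from 16, 20 and 24 UMIs, and its anti-VLA4 ratio was -1.25 (-2.25 to -0.27). Rbpj stood at 47.7, 50.2 and 101 CPM, and its anti-VLA4 ratio was 1.06 (0.07 to 2.27) from 69 and 9 UMIs. That ratio was 0.47 with thinned cells, under 1.5-fold, 1.87 with the stricter cell filter and 2.69 without low-Malat1 cells. Dll4 had 20 UMIs with anti-VLA4 against 2 in stroke isotype, a ratio of 1.38 (-0.58 to 4.60).

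Over all endothelial-like cells together, 0 of 9 members passed 1.5-fold in stroke, 0 of 9 with anti-VCAM1 and 3 of 10 with anti-VLA4, where 8.75%, 11% and 12.4% of all genes did. The 3 were Hey1, at 64.3 and 103 CPM in stroke isotype and anti-VLA4 (0.67, 0.45 to 0.91), Notch2, at 20.6 and 13.3 CPM (-0.60, -1.06 to -0.19), and Notch3, with 2 and 27 UMIs (0.66, -0.73 to 4.38). Hey1 was under 1.5-fold, at 0.52, without low-Malat1 cells and without the span trend. Notch2 was under it in these settings (-0.52 and -0.24), with doublets kept (-0.45), with TMM factors (-0.50) and with a pseudocount of 10 CPM (-0.39). Notch3, whose interval holds 0, was at 0.13 with that pseudocount. The pericyte marker sum of endothelial-like cells was 126 CPM in stroke isotype and 240 CPM with anti-VLA4. Its part in the Notch3 ratio was not tested. Dll4, at 52.2 and 75.7 CPM, had a ratio of 0.53 (0.29 to 0.79). Arterial-like cells, where Hey1 and Dll4 are high, were 86 of 644 endothelial-like cells in stroke isotype and 541 of 3046 with anti-VLA4, and the part of that makeup in these ratios was not tested.

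**Figure D4:**
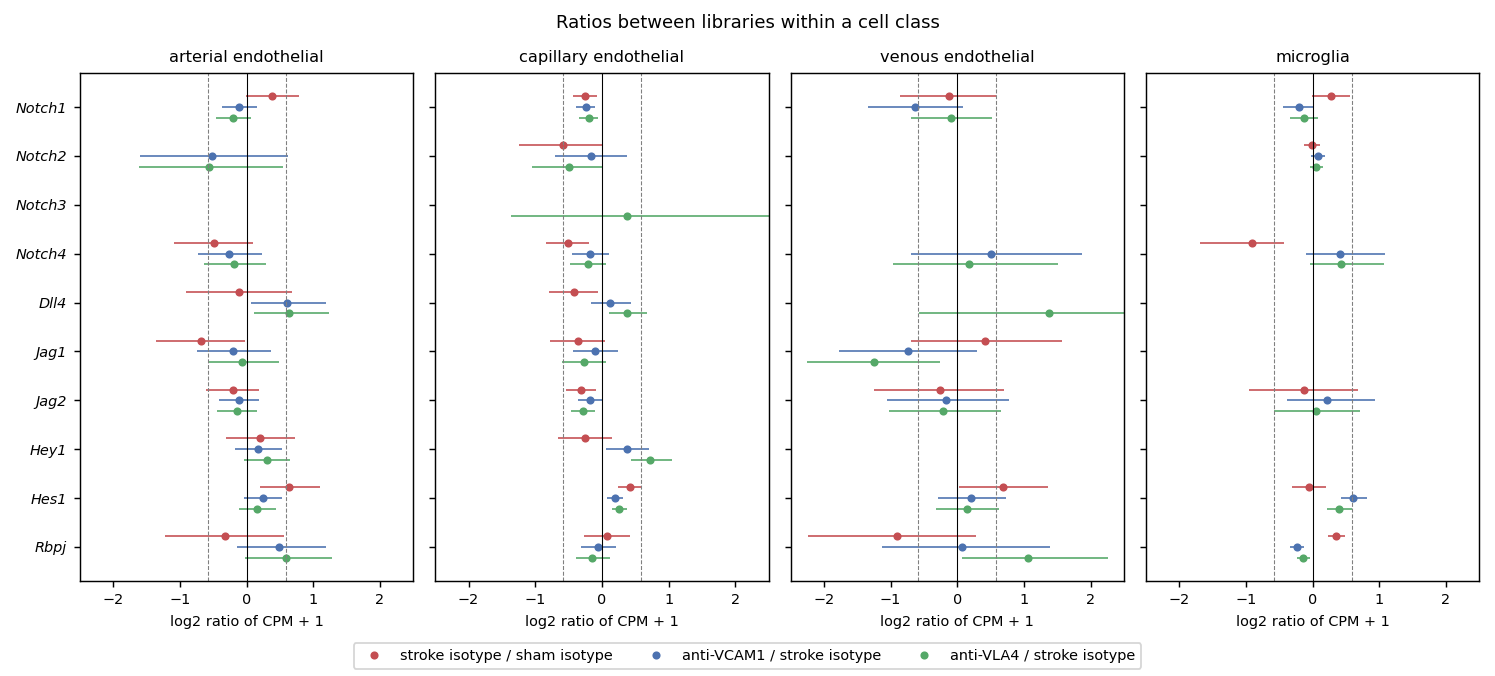
Log2 ratios of CPM + 1 between libraries for the 10 genes in 4 cell classes, with 95% conditional binomial intervals that cover counting error and dashed lines at 1.5-fold; genes under 20 UMIs over the 2 libraries are left out and intervals past the axis are clipped. In capillary-like cells the stroke ratios lie left of 0 for 7 of 9 genes, and the median over all genes is also below 0, at -0.03. There Hes1 lies at 0.41 in stroke, and Hey1 with anti-VLA4 lies at 0.72.

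Microglia-like cells held more UMIs than any single endothelial subtype or other class in each library. The members with enough UMIs to compare were Notch2, Rbpj, Hes1 and, at low levels, Notch1, Notch4 and Jag2. In the stroke comparison, Rbpj stood at 133 and 170 CPM, a ratio of 0.35 (0.22 to 0.49), and was higher in 5 of 5 clusters. Notch4 stood at 9.41 and 4.52 CPM (48 and 42 UMIs), a ratio of -0.91 (-1.69 to -0.43), and was lower in 5 of 5 clusters. The ratio was -0.50 with thinned cells and -0.42 with a pseudocount of 10 CPM, each under 1.5-fold. It was the 1 of 6 members past 1.5-fold, where 6.26% of all genes were. The sum of endothelial markers in microglia-like cells was 47.2, 73.5, 101 and 106 CPM. Without cells that held a UMI of Cldn5, an endothelial junction gene, the Notch4 ratio was lower than -0.91 and stayed past 1.5-fold. The part of endothelial transcripts in the Notch4 ratio was not tested beyond that removal. Notch2 differed by -0.01 (-0.14 to 0.11).

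With the blockades, Hes1 in microglia-like cells stood at 58.6 CPM (anti-VCAM1) and 50 CPM (anti-VLA4), above the 38.0 CPM of stroke isotype. Its ratios were 0.61 (0.43 to 0.82) and 0.39 (0.21 to 0.59), and it was higher in 7 of 7 clusters in both. It was the 1 of 6 members past 1.5-fold with anti-VCAM1, where 3.87% of all genes were, and with anti-VLA4 0 of 6 were, where 4.77% were. The endothelial marker sum was also higher in both blockade libraries, and without cells that held a Cldn5 UMI the Hes1 ratios were 0.63 and 0.36. After thinning, a Hes1 UMI was seen in 4.37%, 3.68%, 5.30% and 5.32% of microglia-like cells, with intervals of 2.77 to 4.79 in stroke isotype and 4.31 to 6.45 with anti-VCAM1, which overlap. Rbpj went the other way, from 170 CPM to 145 and 154 CPM, with ratios of -0.23 (-0.33 to -0.13) and -0.14 (-0.24 to -0.05), and was lower in 7 of 7 clusters with anti-VCAM1 and in 5 of 7 with anti-VLA4. In the isotype libraries the largest microglia-like cluster was led, against all other cells, by Egr1, Fos and Ccl3 (281 and 425 cells). In the blockade libraries it was a cluster led by P2ry12, Olfml3 and Tmem119 (430 and 779 cells), though the first held 418 cells with anti-VCAM1. The part of this makeup in the Hes1 and Rbpj ratios was not tested.

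In border-macrophage-like cells, Hes1 stood at 39.4, 34.2, 39.7 and 98.7 CPM, and its anti-VLA4 ratio was 1.5 (0.91 to 2.15). The endothelial marker sum in this class was 37.1, 30.9, 302 and 1771 CPM, and without cells with a Cldn5 UMI the Hes1 ratio was 0.40. In this class, 1 of 5 members passed 1.5-fold in stroke, 1 of 5 with anti-VCAM1 and 2 of 5 with anti-VLA4, where 17.7%, 22.9% and 25.7% of all genes did. Rbpj, at 867 CPM in stroke isotype and 993 CPM with anti-VLA4, had a ratio of 0.20 (0.04 to 0.35).

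In T-cell-like cells Hes1 was held by few cells. It stood at 17.8, 96.9, 109 and 3.54 CPM, from 8, 114, 58 and 3 UMIs in 2, 9, 7 and 3 cells, and the highest single cell held 7, 39, 31 and 1 of them. The stroke isotype and anti-VCAM1 libraries were high and the anti-VLA4 library lowest. The stroke ratio was 2.38 (1.42 to 3.69). The anti-VCAM1 ratio was 0.17 (-0.31 to 0.64), and the anti-VLA4 ratio -4.43 (-7.07 to -3.19). In each comparison 1 of 4 members passed 1.5-fold, where 30.9%, 22.8% and 21.2% of all genes did. Counting intervals do not cover the spread between so few cells. Hes1 was at 253 CPM in the T-cell-like cluster led by Skap1 and Icos (8, 80, 20 and 35 cells) and at 4.73 CPM in the larger one led by Ccl5 and Cd8b1 (49, 154, 83 and 164 cells). Of the other members tested in these cells, Rbpj differed by -0.17, -0.38 and 0.18 with intervals that hold 0, and Notch1 passed 1.5-fold with anti-VCAM1 at 0.62 (-0.14 to 1.40).

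The 52 other genes of the pathway were read by counts. In capillary-like cells 38, 41 and 41 of them had the 20 UMIs needed in the stroke, anti-VCAM1 and anti-VLA4 comparisons. Of these 0, 1 and 1 were higher and 1, 4 and 3 lower past 1.5-fold, where 4.75%, 3.87% and 4.02% of all genes were higher and 5.26%, 7.29% and 8.77% lower. Their median ratios were -0.14, 0.007 and -0.04, beside -0.03, -0.05 and -0.07 over all genes. In microglia-like cells 1, 0 and 1 of 42, 43 and 43 were higher and 0 lower in each, where 3.45%, 2.07% and 2.14% of all genes were higher and 2.81%, 1.8% and 2.63% lower. In arterial-like cells 3, 5 and 3 of 28, 38 and 38 were higher and 3, 4 and 6 lower, where 9.91%, 10.9% and 11% of all genes were higher and 10.1%, 12.2% and 12.6% lower.

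Among nuclear cofactors, Maml2, a coactivator of the receptor complex, stood at 396, 348, 216 and 207 CPM in capillary-like cells, with blockade ratios of -0.69 (-0.82 to -0.57) and -0.75 (-0.87 to -0.63). In arterial-like cells it was at 275, 287, 184 and 175 CPM, with -0.64 and -0.71, and in venous-like cells the ratios were -1.18 and -1.30. It was lower in both blockade libraries in all 3 endothelial classes. Maml2 spans 411 kb, and with the span trend removed the ratios of anti-VCAM1 and anti-VLA4 were -0.24 and -0.23 in capillary-like, -0.23 and -0.29 in arterial-like and -0.62 and -0.77 in venous-like cells. Without low-Malat1 cells the Maml2 ratios of capillary-like cells were -0.51 and -0.54. Maml1 was at 46.5 and 21.0 CPM in capillary-like cells of sham isotype and stroke isotype, a ratio of -1.11 (-1.70 to -0.61). Maml3 was at 62.0 and 37.2 CPM in stroke isotype and anti-VLA4, a ratio of -0.72 (-1.02 to -0.44), which was -0.20 with the span trend removed (Maml3 spans 419 kb) and -0.37 with doublets kept.

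Of the other roles, Mfng, a fringe glycosyltransferase that modifies the receptors, was at 21.0 and 45.9 CPM in arterial-like cells of stroke isotype and anti-VLA4, a ratio of 1.09 (0.21 to 2.22), which was 0.27 with thinned cells. Psenen, a subunit of the gamma-secretase that frees the intracellular part, was at 45.3 and 126 CPM in arterial-like cells of sham isotype and stroke isotype, a ratio of 1.45 (0.69 to 2.32), which was 0.74 at clustering resolution 0.5. Egfl7, an endothelial secreted protein that binds Notch receptors, was at 991 to 1183 CPM in venous-like cells and at 0.784, 3.34, 4.76 and 6.87 CPM in microglia-like cells. Its microglia-like ratios of 1.28 (stroke) and 0.86 (anti-VLA4) move with the endothelial marker sum of that class, whose part in them was not tested.

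Between subtypes, Nrarp, a feedback inhibitor of the pathway, was higher in arterial-like than in capillary-like cells at least 2-fold in all 4 libraries, at 2.32, 1.12, 1.09 and 1.16. It was the 1 of 39 other pathway genes with that order, where 1.43% of all genes had it. Maml3 was lower in arterial-like than in venous-like cells in all 4 libraries, at -1.94, -1.22, -1.67 and -1.26, the 1 of 37 other pathway genes past 2-fold, where 1.29% of all genes were. The targets Heyl and Hey2 were measured mainly in pericyte-like cells, where Heyl stood at 106 and 110 CPM and Hey2 at 48.3 and 55.8 CPM in the blockade libraries. The class held 3922 and 1302 CPM of the smooth muscle list there, whose part in these levels was not tested. The endothelial classes had at most 1.06 CPM of Heyl and 5.04 CPM of Hey2. Hes5 was seen in astrocyte-like cells at 48.5 to 140 CPM, and of the ligands not chosen, Dll1 had 114 UMIs in all, Dlk1 had 1 and Dll3 had 0.

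The genes most like each member in their mean level over 9 classes, by Pearson r of log2(CPM + 1) among 12474 genes, were found as a description. They share the libraries and classes with the member. For Hey1 they were Sema3g (0.98), an arterial marker used to name the class, Rad54b and Gm9946. For Notch3 they were Foxd1 (0.996), Zic1 and Enpep. For Rbpj they were Tnip3 (0.96), Clec4a1 and Gm34084, for Notch2 Gm43813, Cd86 and Dock8, and for Notch1 Txndc9, Mvk and Glis2. For Notch4 they were Actr1b, Ubr4 and Golim4, for Dll4 Pdp1, Scube2 and Vil1, and for Jag1 Anxa5, Psmb2 and Ifi44. For Jag2 they were Dusp8, Pls3 and Gstm7, and for Hes1 Arhgap29, 4930555A03Rik and Cdr2l.

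**Figure D5:**
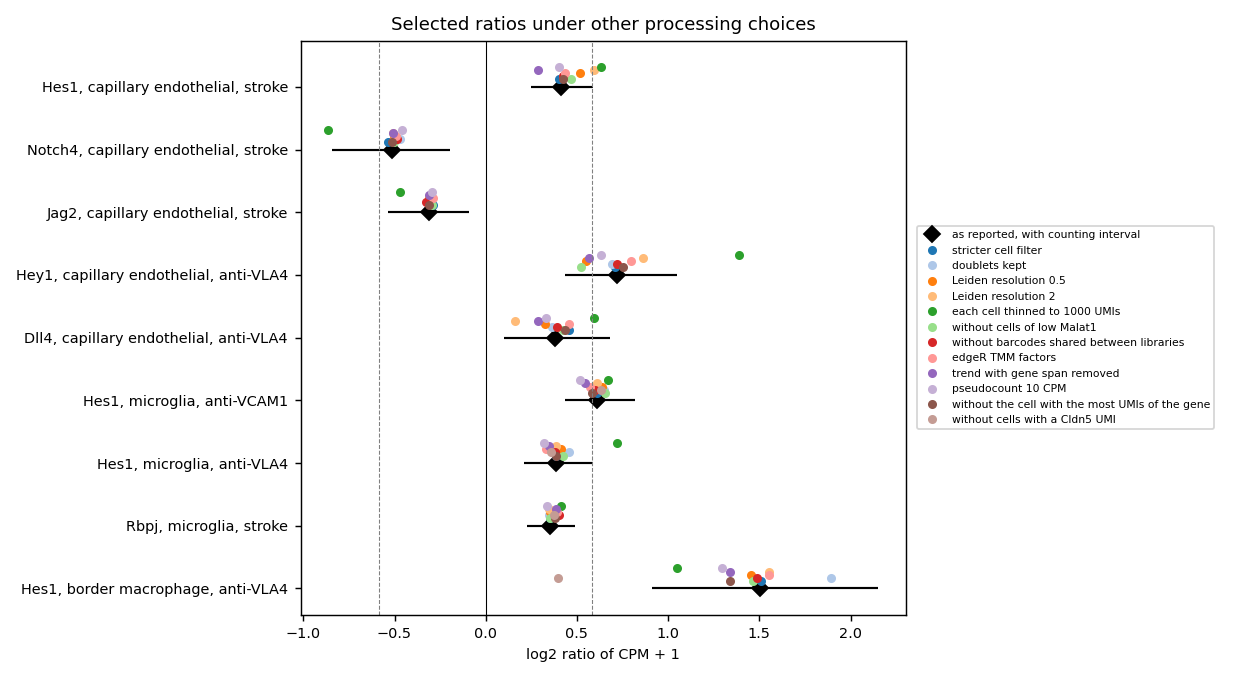
Log2 ratios of CPM + 1 for 9 member, class and comparison combinations, with the reported value and its 95% counting interval (black) and the value under each other processing choice (coloured points); dashed lines mark 1.5-fold. All 9 keep their sign under every choice shown, Hey1 in capillary-like cells with anti-VLA4 ranges from 0.52 to 1.39, and Hes1 in border-macrophage-like cells drops to 0.40 without cells holding a Cldn5 UMI. The 9 are a selection made without a set rule, and the 5 ratios whose sign changed with thinned cells are not among them.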

How the data were processed

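Single cells were profiled with 10x Genomics 3′ chemistry v3.1, per the labels' protocols. The authors deposited 1 matrix of UMI counts per library, for which the file headers name Cell Ranger 7.0.1 and the submitters' processing notes Cell Ranger 6.0.0. Per the submitters' processing notes, the tools and builds also include Seurat 4.3.0.1, mm10 and GRCh38. The files held 1541 to 6361 barcodes per library with at least 500 UMIs each, so low barcodes had been removed before deposit. Which build each matrix used is not given in the sources used here, and gene positions come from the GENCODE M21 annotation of GRCm38.

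Cells with at least 500 UMIs, 200 genes and at most 10% mitochondrial UMIs were kept, and Scrublet doublets (9, 24, 58 and 124) were removed. Clustering (scanpy 1.11.5, Leiden resolution 1, 2000 variable genes, 30 components, 15 neighbours) left out 177 genes, among them all pathway genes, and endothelial cells were clustered again. A cluster was named from at least 3 markers of a list, and a limit of 4 markers of a second class was set after seeing the clusters. UMIs were summed per class and library, with a minimum of 20 cells. Intervals are exact Poisson, conditional binomial or Clopper-Pearson intervals at 95%. Ratios used a pseudocount of 1 CPM and at least 20 UMIs over both libraries. Genes were called past 1.5-fold between libraries and past 2-fold in all 4 libraries between subtypes (at least 80 UMIs). Ratios were tested on simulated data. All 10 members are named, and of the other pathway genes those past 1.5-fold with an interval that excludes 0, up to the 2 highest and 2 lowest per comparison and class, were eligible. Of these, some are described. The members and lists were chosen with earlier results of these data known. Alternatives were other cell filters, doublets kept, other resolutions, thinning, edgeR 4.0.16 TMM factors, removal of low-Malat1 cells, of the top cell or of the span trend, and another pseudocount.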

Additional observations from a re-analysis of the deposited data

Results flagged for a closer look

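In the anti-VLA4 comparison, the counting intervals of Hes1 and Rbpj lay on opposite sides of 0 in different cell classes. These differences between classes were not tested, since each group is 1 library. The log2 ratio of Hes1 was 0.26 (0.14 to 0.37) in capillary-like cells, 0.39 (0.21 to 0.59) in microglia-like cells and 1.5 (0.91 to 2.15) in border-macrophage-like cells, each set against -4.43 (-7.07 to -3.19) in T-cell-like cells. The T-cell-like value rests on 114 Hes1 UMIs in 9 cells of stroke isotype and 3 UMIs in 3 cells of stroke anti-VLA4. The border-macrophage-like value was 0.40 without cells with a Cldn5 UMI.

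The log2 ratio of Rbpj was 1.06 (0.07 to 2.27) in venous-like cells and 0.20 (0.04 to 0.35) in border-macrophage-like cells, each against -0.14 (-0.24 to -0.05) in microglia-like cells. The venous-like value rests on 9 Rbpj UMIs in stroke isotype. It was 0.47 with thinned cells, 1.87 with the stricter cell filter and 2.69 without low-Malat1 cells, and the border-macrophage-like value was 0.004 with thinned cells.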

How the results depend on the processing

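Of the log2 ratios recomputed, 1268 values lay within the counting interval of the reported one, 59 lay outside it, and 5 ratios that were past 1.5-fold changed sign. Those 5 came with cells thinned to 1000 UMIs: Dll4 in arterial-like cells with anti-VCAM1 (-0.082), Rbpj in arterial-like cells with anti-VLA4 (-0.11), Notch1 in venous-like cells with anti-VCAM1 (0.0030), Notch1 in border-macrophage-like cells in stroke (0.27) and Notch1 in T-cell-like cells with anti-VCAM1 (-1.45). The cause was not tested, and thinned ratios rest on fewer UMIs and were given no interval. Counts of members past 1.5-fold are small and moved often, and thinned counts cover the members tested with all UMIs. In arterial-like cells the stroke count of 2 was 0 at resolutions 0.5 and 2 and 1 without the top cell. The anti-VCAM1 count of 1 was 0 with doublets kept, at resolution 2 and with a pseudocount of 10, 2 at resolution 0.5 and without low-Malat1 cells, and 3 with thinning. With thinned cells and the minimum of 20 UMIs applied again, it was 0 higher and 2 lower, against 1 higher with all UMIs. The anti-VLA4 count of 2, both higher, was likewise 0 higher and 2 lower (Notch4 at -1.28 and Jag1 at -0.83), and it was 1 without low-Malat1 cells and without the span trend, and 0 with a pseudocount of 10. In capillary-like cells the stroke count of 1 was 5 with thinning and 0 with the stricter filter, without low-Malat1 cells, with TMM factors, without the span trend, with a pseudocount of 10 and without the top cell. The anti-VCAM1 count of 0 was 1 at resolution 2 and with thinning. The anti-VLA4 count of 1 was 0 at resolution 0.5, without low-Malat1 cells and without the span trend, 2 at resolution 2 and without the top cell, and 3 with thinning (2 with the minimum applied again). In microglia-like cells the stroke count of 1 was 0 with a pseudocount of 10. The anti-VCAM1 count of 1 was 2 with thinning and 0 with TMM factors, without the span trend and with a pseudocount of 10, and the anti-VLA4 count of 0 was 2 with thinning. Of the subtype orders past 2-fold, arterial-like over venous-like went from 3 to 1 at resolution 2, and capillary-like over venous-like from 2 to 1 at resolution 2 and with thinning.

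Leaving out shared barcodes, or cells with a Cldn5 UMI, was chosen after seeing the data. Few UMIs limit the values of venous-like, pericyte-like, B-cell-like and astrocyte-like cells, and the intervals cover counting error only. No paired analysis was possible because each group is 1 library.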
